A study of Mus musculus with 4 samples.

Results

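The 10 genes described here mark endothelium, the cells that line blood vessels, and the capillaries of the heart in particular. They are Pecam1, Cdh5, Tie1, Kdr, Flt1, Vwf, Fabp4, Aqp1, Ly6c1 and Rgcc, found by symbol among the 32285 genes of the count files. All 10 were found, and all 10 reached the minimum of 100 UMIs that was set for a test. They were followed in Visium sections of mouse hearts after myocardial infarction (MI). A Visium slide carries barcoded spots, and each spot collects mRNA from the small group of cells above it, so a spot can hold endothelial cells, cardiomyocytes, fibroblasts and immune cells together.

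The series holds 4 sections, each from 1 adult ICR mouse of 12 weeks, at day 1, day 4, day 7 and day 14 after MI. In all 4 mice the left anterior descending coronary artery (LAD) was tied permanently, and no unoperated or sham heart was among the sections. With 1 mouse per day, day and mouse cannot be told apart, and no test between days was made. The counts are of unique molecular identifiers (UMIs), tags by which every captured transcript is counted 1 time, and a level in a group of spots is given as CPM, the UMIs of a gene per 1000000 UMIs of the group. Spots with more than 1% of their UMIs from hemoglobin genes were left out. That left 1890, 1679, 1848 and 2086 spots on days 1, 4, 7 and 14, with 9292678 to 15713779 UMIs per section and a median of 5188 to 8799 UMIs per spot. The sections share 1572 to 1918 spot barcodes per pair, since every slide carries the same printed barcodes, and a shared barcode is not a shared cell.

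The endothelium of the heart forms a dense capillary bed in which nearly every cardiomyocyte touches a vessel. Junction proteins such as those of Pecam1 and Cdh5 hold endothelial cells together in all vessels, receptors for vascular endothelial growth factor (VEGF) govern their survival and sprouting, and capillary cells carry fatty acids and water between blood and muscle. When a coronary artery is tied, the muscle it feeds dies with much of its vessel bed, and new vessels grow into the granulation tissue that becomes scar.

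To ask how these genes lie between lost and surviving muscle, the spots of each section were ranked on the share of their UMIs from Myh6 and Myl2, which encode a myosin heavy chain and a myosin light chain of cardiomyocytes, and cut into quartiles. Quartile 1 has the least and quartile 4 the most. The share in quartile 1 was 0.773%, 0.271%, 0.229% and 1.53% on days 1, 4, 7 and 14, against 2.82%, 2.57%, 2.80% and 2.56% in quartile 4. Quartile 1 of day 14 was therefore the least separated from its quartile 4. The ranking was set against other marker lists. A sum of 8 further cardiomyocyte genes stood at 55575 to 62952 CPM in quartile 4 and at 31216, 11806, 9731 and 43689 in quartile 1. A sum of 8 collagen and fibroblast genes stood at 2825, 40904, 43863 and 10141 CPM in quartile 1 and at 1202, 1618, 1778 and 1181 in quartile 4. A sum of 8 macrophage genes stood at 625, 2526, 1919 and 820 against 222, 248, 229 and 161. Quartile 1 had less cardiomyocyte RNA and more scar and macrophage RNA than quartile 4 on each day, but its spots also held other tissue. On day 7, 116 of its 462 spots reached 10 UMIs in a list of 10 genes of fast skeletal muscle, whose sum was 21531 CPM there against 171 in quartile 4. No other quartile had more than 3 such spots. The values of day 7 that moved most when these spots were left out and the rest ranked again are given with both settings. The spots of quartile 1 had a median of 6389, 6524.5, 2826 and 2329.5 UMIs on the 4 days, against 5971, 9221, 5515 and 8278 in quartile 4, so they were shallower on days 4, 7 and 14. In sums over spots, fewer endothelial cells and less RNA per cell cannot be told apart.

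Promoter sequences are shown for the 4 members whose lower level in quartile 1 was called by the test below and kept in at least 20 of 22 alternative settings, and that have an entry in the promoter table. RefSeq entries on GRCm38.p6 cover 250 bases before to 50 after the transcription start and matched 6 of the 10 members: Tie1, Kdr, Flt1, Aqp1, Rgcc and Ly6c1, the last with more than 1 entry, of which the outermost start is printed. Capitals mark matches on either strand to 4 motifs. The first is AGGAAG, 1 form of the GGAA-centred site of ETS factors, a family that includes the endothelial factor ERG. GGAA with other bases around it was not marked. The next is GGGCGG, a site of SP factors in many promoters. A further motif is TATAAA, which is found just before the start of some genes. The last is AGATAA, which is bound by GATA factors in several cell types. Matches that overlap are run together. The windows, each 5′ to 3′ on the strand of its gene, are chr5:75978406-75978705 (minus) for Kdr, chr6:55336049-55336348 (plus) for Aqp1, chr15:75048788-75049087 (minus) for Ly6c1 and chr14:79301586-79301885 (minus) for Rgcc.

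Kdr: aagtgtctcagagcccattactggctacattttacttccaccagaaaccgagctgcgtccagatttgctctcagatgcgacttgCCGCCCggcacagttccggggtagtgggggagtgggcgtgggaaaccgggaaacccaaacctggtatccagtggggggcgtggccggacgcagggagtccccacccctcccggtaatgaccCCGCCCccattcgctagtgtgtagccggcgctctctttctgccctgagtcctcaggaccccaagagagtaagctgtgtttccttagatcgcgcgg
Aqp1: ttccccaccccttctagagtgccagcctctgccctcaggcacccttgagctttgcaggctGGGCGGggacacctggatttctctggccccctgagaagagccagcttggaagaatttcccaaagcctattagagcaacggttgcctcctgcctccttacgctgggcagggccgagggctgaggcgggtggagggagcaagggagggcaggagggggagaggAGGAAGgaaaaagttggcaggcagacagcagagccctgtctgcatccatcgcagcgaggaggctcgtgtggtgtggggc
Ly6c1: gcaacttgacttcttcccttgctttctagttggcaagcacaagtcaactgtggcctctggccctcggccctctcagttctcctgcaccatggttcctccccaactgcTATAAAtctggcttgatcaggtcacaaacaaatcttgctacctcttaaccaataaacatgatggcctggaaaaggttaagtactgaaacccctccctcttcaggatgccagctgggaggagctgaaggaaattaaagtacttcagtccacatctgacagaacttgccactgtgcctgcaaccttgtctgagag
Rgcc: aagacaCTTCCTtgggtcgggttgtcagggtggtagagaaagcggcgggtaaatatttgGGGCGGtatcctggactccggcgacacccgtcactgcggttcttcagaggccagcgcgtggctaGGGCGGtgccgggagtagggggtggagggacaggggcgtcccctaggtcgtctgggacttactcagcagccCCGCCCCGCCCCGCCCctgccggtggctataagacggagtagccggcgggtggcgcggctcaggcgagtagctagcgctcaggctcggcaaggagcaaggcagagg

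Of all 32851 promoters in the table, 35.4% hold the ETS motif AGGAAG and 35.7% hold GGGCGG. The shares were 13.6% for TATAAA and 11.2% for AGATAA. Among those printed, AGGAAG was matched 1 time in Aqp1 and 1 time in Rgcc. GGGCGG was matched 2 times in Kdr, 1 time in Aqp1 and 5 times in Rgcc. TATAAA was matched 1 time, in Ly6c1, and AGATAA in none. The Ly6c1 entry that is not printed had 3 matches to AGGAAG and 0 to TATAAA. These are matches of letters and say nothing of binding.

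Pecam1 (CD31, chr11:106654217-106750628 on GRCm38, minus strand) encodes an adhesion molecule of endothelial junctions that platelets and some leukocytes also carry. Its level in quartile 1 was 76.0, 66.7, 78.9 and 42.7 CPM on days 1, 4, 7 and 14, against 36.5, 31.1, 46.5 and 29.7 in quartile 4. By CPM it was higher in quartile 1 in 4 of 4 sections. As log2 ratios this was 1.06 (95% interval 0.72 to 1.41), 1.10 (0.76 to 1.45), 0.76 (0.38 to 1.14) and 0.52 (0.11 to 0.93), where the intervals, like all those below, cover counting error only. The median log2 ratio of all genes was also above 0 on each day, at 0.53, 1.01, 0.82 and 0.35. Quartiles 3 and 2 stood at 36.9 and 40.3 on day 1, near quartile 4. On day 4 they stood at 27.4 and 45.4, so the level rose over quartiles 2 and 1. With the spots of day 7 cut into deciles, the lowest 4 had 66.8, 91.3, 94.4 and 79.5 CPM, with intervals that overlap. Counted per spot, Pecam1 had 1.96 and 1.56 times as many UMIs in quartile 1 as in quartile 4 on days 1 and 4, but 0.959 and 0.711 times as many on days 7 and 14.

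Cdh5 (VE-cadherin, chr8:104101625-104144511, plus strand) encodes the cadherin of endothelial adherens junctions and is among the most specific endothelial genes. Its level in quartile 1 was 132, 121, 89.1 and 82.5 CPM on the 4 days, against 69.1, 55.8, 91.8 and 71.6 in quartile 4. The log2 ratio was 0.94 (0.68 to 1.19) on day 1 and 1.12 (0.87 to 1.38) on day 4. On day 7 it was -0.04 (-0.36 to 0.27) and on day 14 0.20 (-0.07 to 0.48), both intervals reaching 0. By CPM Cdh5 therefore resembled Pecam1 on the early days, and on the later days its quartiles overlapped within counting error. An annotated antisense gene, Gm29682, overlaps Cdh5 and had 0 UMIs.

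Tie1 (chr4:118471191-118490061, minus strand) encodes an orphan receptor that modulates angiopoietin signalling, and with 648 UMIs it was the most sparsely counted member. Quartile 1 had 10.6, 15.95, 12.9 and 12.96 CPM on the 4 days, against 15.1, 7.64, 22.3 and 8.80 in quartile 4. Only the ratios of day 4 (log2 1.06, 0.35 to 1.79) and day 7 (-0.79, -1.62 to -0.02) had intervals without 0, and they pointed in opposite directions. Without the skeletal-marked spots the value of day 7 was -0.41 (-1.18 to 0.32), which reaches 0.

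Kdr (VEGF receptor 2, chr5:75932827-75978458, minus strand) encodes the main signalling receptor for VEGF-A. Quartile 1 had 59.9, 46.8, 65.3 and 64.3 CPM and quartile 4 had 66.4, 53.7, 102 and 62.8. Day 7 stood out by its upper quartiles, with 108, 124 and 102 in quartiles 2, 3 and 4, where the quartiles of the other days lay between 46.2 and 72.6. The log2 ratio of quartile 1 to quartile 4 was -0.64 (-0.99 to -0.30) on day 7, or -0.42 (-0.76 to -0.08) without the skeletal-marked spots, and the intervals of the other days reached 0.

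Flt1 (VEGF receptor 1, chr5:147561604-147726011, minus strand) encodes a receptor that binds VEGF tightly and signals weakly, with a soluble form that traps the ligand. Quartile 1 had 76.7, 36.3, 32.6 and 27.4 CPM and quartile 4 had 48.8, 45.6, 51.8 and 26.4. Day 1 was above its quartile 4 (log2 0.65, 0.34 to 0.97) and day 7 below (-0.67, -1.17 to -0.18), while days 4 and 14 were within counting error. Without the skeletal-marked spots day 7 was at -0.35 (-0.83 to 0.11), which reaches 0. With the TMM factors of the test below, and all kept spots, day 1 was at 0.16 (-0.15 to 0.48) and day 4 at -1.28 (-1.65 to -0.92). In quartile 1 the levels of the later days lay below that of day 1, by log2 -1.08 (-1.44 to -0.73) on day 4, -1.23 (-1.72 to -0.77) on day 7 and -1.49 (-1.94 to -1.06) on day 14. The Myh6 and Myl2 share of quartile 1 also differed between these days.

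Vwf (von Willebrand factor, chr6:125546774-125686679, plus strand) encodes the clotting protein stored in endothelial granules, mostly of larger vessels, and in platelets. Quartile 1 had 18.3, 34.8, 27.2 and 39.3 CPM and quartile 4 had 33.0, 26.6, 18.0 and 21.9. The ratio went from log2 -0.85 (-1.38 to -0.35) on day 1 to 0.85 (0.40 to 1.29) on day 14. Cut into deciles, the spots with the least Myh6 and Myl2 had 98.2 CPM of Vwf on day 14, from 30 UMIs, against 14.0 on day 1, from 13 UMIs. A sum of 5 platelet genes was higher in quartile 1 on every day, at 210, 307, 87.1 and 66.2 CPM against 33.7, 35.6, 29.2 and 29.3. Pf4, a platelet chemokine gene that macrophages also transcribe, made up most of that sum (194, 290, 71.4 and 58.5). The part of platelet RNA in Pecam1 and Vwf was not tested.

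**Figure D1:**
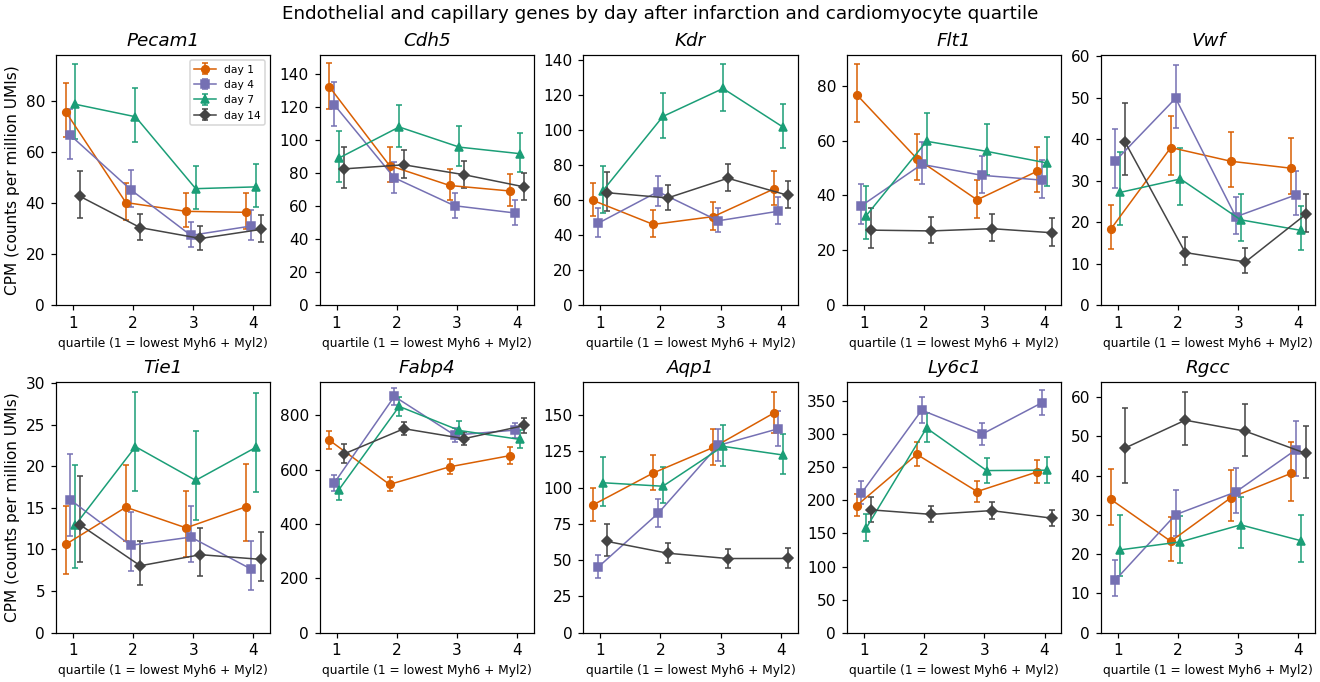
Level of each of the 10 genes in CPM (vertical axis, linear from 0) in quartiles of spots ranked on Myh6 and Myl2 (horizontal axis, 1 = lowest share), with 1 line per day, 1 section each, and bars for exact Poisson 95% intervals. Pecam1 is higher in quartile 1 on every day, Cdh5 on days 1 and 4, and Aqp1 is higher toward quartile 4 on days 1 and 4 and lies between 51.1 and 62.9 on day 14.

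Fabp4 (chr3:10204088-10208576, minus strand) encodes a fatty acid binding protein of capillary endothelium that adipocytes and some macrophages also express. It had 36225 UMIs, more than the other 9 members together, so it sets most of any plain sum over the members. Quartile 1 had 709, 550, 526 and 657 CPM and quartile 4 had 652, 745, 711 and 763. By CPM day 1 was slightly above its quartile 4 (log2 0.12, 0.03 to 0.21), and days 4, 7 and 14 were below, at -0.44 (-0.53 to -0.35), -0.43 (-0.56 to -0.31) and -0.21 (-0.31 to -0.12). With the TMM factors of the test below, day 1 was at -0.37 (-0.46 to -0.28), so its sign depended on the scale. The higher CPM of day 1 lay in few spots. In 62 spots with under 0.5% Myh6 and Myl2, Fabp4 had 1748 CPM against 620 in spots over 2%. The adipocyte list of 5 genes summed to 220 CPM in quartile 1 of day 1 against 16.5 in quartile 4, and 11 spots there had at least 10 UMIs of it. On days 4 and 14 that list was lower in quartile 1 than in quartile 4 (5.08 against 16.6, and 1.44 against 22.1), and on day 7 it was higher (209 against 6.14). Adipoq, a defining adipocyte gene, had 24.5 CPM in quartile 1 of day 1 and 0 in quartile 1 of day 14. The part of adipocytes in the level of Fabp4 was not tested.

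Aqp1 (chr6:55336432-55348555, plus strand) encodes a water channel of capillary endothelium and red cells. The promoter window printed for it, from the RefSeq annotation, ends at 55336348, before this start. Quartile 1 had 88.1, 45.0, 103 and 62.9 CPM and quartile 4 had 151, 141, 122 and 51.2. On days 1 and 4 it declined through all quartiles, from 151 by 128 and 110 to 88.1, and from 141 by 129 and 82.2 to 45.0. The ratios were log2 -0.78 (-1.01 to -0.55) on day 1 and -1.65 (-1.94 to -1.36) on day 4, while those of day 7 (-0.24, -0.53 to 0.04) and day 14 (0.30, -0.03 to 0.62) reached 0. Day 7 changed with the skeletal-marked spots. Without them quartile 1 had 58.9 CPM against 122 in quartile 4, a log2 ratio of -1.05 (-1.43 to -0.70), so Aqp1 was then lower beyond counting error on days 1, 4 and 7. In quartile 4, the level on day 14 was lower than that on day 1 by log2 -1.57 (-1.81 to -1.33). The hemoglobin sum of quartile 4, cut by the 1% limit on kept spots, was 975 CPM on day 1 and 1620 on day 14. The part of red cells in the level of Aqp1 was not tested.

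Ly6c1 (chr15:75044018-75048830, minus strand) encodes a GPI-anchored surface protein of endothelium, and its close relative Ly6c2 that of monocytes. Quartile 1 had 192, 211, 158 and 186 CPM and quartile 4 had 243, 348, 246 and 173. The ratios were log2 -0.34 (-0.51 to -0.17), -0.72 (-0.86 to -0.58) and -0.63 (-0.86 to -0.41) on days 1, 4 and 7, all below 0, and 0.10 (-0.08 to 0.28) on day 14. Without the skeletal-marked spots the value of day 7 was -0.33 (-0.54 to -0.12). Of the 50-base windows in the last 500 bases of its transcripts, 29.2% also occur in other genes, led by Ly6c2, Ly6a and Ly6i, and for the other 9 members the share is 0%. Reads of Ly6c1 and its relatives may thus be split or lost, and its level is uncertain to that extent. Ly6c2 itself had 16.4, 3.99, 3.40 and 5.76 CPM in quartile 1, and 1.38, 0, 0 and 0.238 in quartile 4.

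Rgcc (chr14:79288756-79301645, minus strand) encodes a regulator of the cell cycle that is enriched in capillary endothelium. Quartile 1 had 34.0, 13.4, 21.1 and 47.0 CPM and quartile 4 had 40.6, 46.6, 23.4 and 45.7. By CPM only day 4 separated the quartiles beyond counting error, at log2 -1.80 (-2.35 to -1.28), which rests on 37 UMIs in quartile 1 and 177 in quartile 4. On day 7 the ratio was -0.15 (-0.82 to 0.49), or -0.60 (-1.38 to 0.13) without the skeletal-marked spots. With the TMM factors of the test below, days 1 and 7 were at -0.75 (-1.15 to -0.34) and -0.89 (-1.56 to -0.24). Day 14 was then at -0.30 (-0.67 to 0.06), which reaches 0. The decile of spots with the least Myh6 and Myl2 on day 14 had 9.82 CPM, from 3 UMIs, against 54.3 in the highest decile. Quartile 1 as a whole, at 47.0, did not show this low end.

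**Figure D2:**
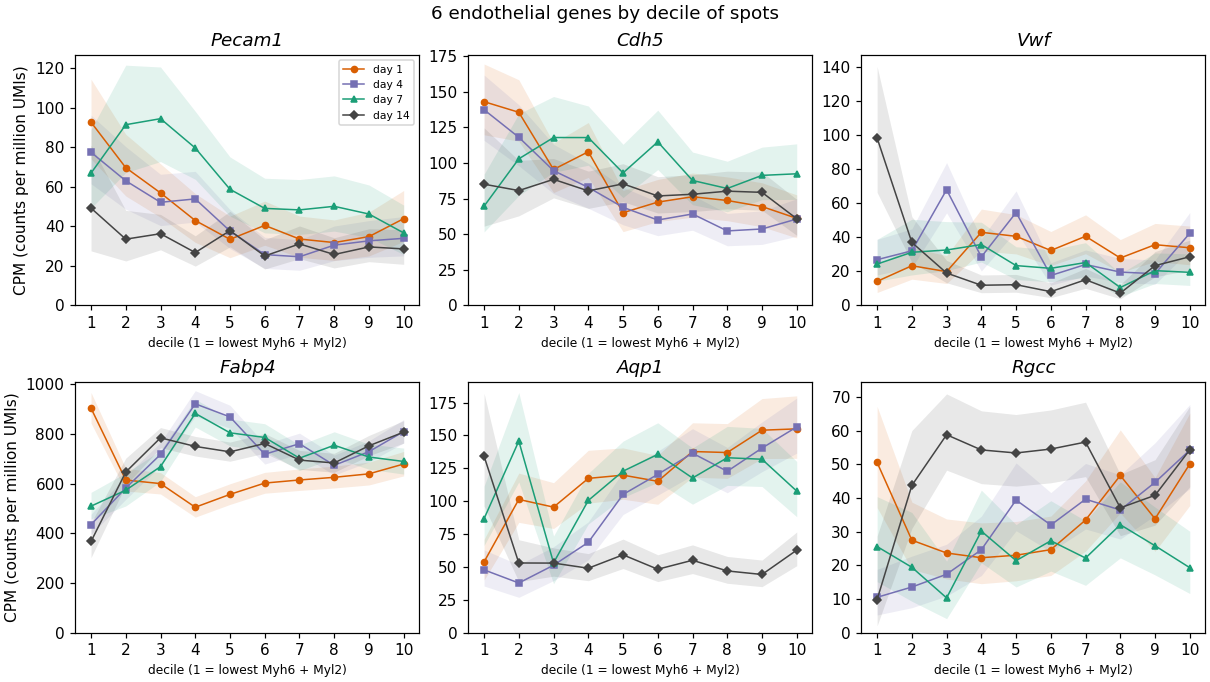
Levels of 6 of the genes in CPM (vertical axis, linear from 0) by decile of spots ranked on Myh6 and Myl2 (horizontal axis, 1 = lowest share), 1 line per day, with shaded exact Poisson 95% intervals. On day 14 the lowest decile has the highest Vwf and Aqp1 (98.2 and 134 CPM) and the lowest Rgcc and Fabp4 (9.82 and 367), with Vwf at 36.9 in the next decile, and on day 1 Fabp4 is highest in the lowest decile.

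Summed, the 10 members had 1397, 1142, 1115 and 1222 CPM in quartile 1 and 1356, 1501, 1435 and 1254 in quartile 4. The sum differed beyond counting error on day 4 (log2 -0.40, -0.46 to -0.33) and day 7 (-0.36, -0.45 to -0.28). Per spot, quartile 1 held 0.968, 0.551, 0.439 and 0.482 times the members' UMIs of quartile 4, a sum that is mostly Fabp4. The 21 further pan-endothelial genes described below had 7.45, 9.09, 4.19 and 3.46 UMIs per spot in quartile 1 against 5.30, 6.74, 5.72 and 5.37 in quartile 4, more on days 1 and 4 and fewer on days 7 and 14. By day, the number of members at least 1.5-fold higher in quartile 1 was 3, 3, 2 and 1, where 47.3%, 65.0%, 58.0% and 36.1% of about 11600 genes were. The number at least 1.5-fold lower was 2, 3, 4 and 0, where 14.4%, 12.6%, 13.3% and 4.70% of genes were. These are counts without a test. On day 7 the members lower were Kdr, Flt1, Tie1 and Ly6c1. Without the skeletal-marked spots none of them was 1.5-fold lower (log2 -0.42, -0.35, -0.41 and -0.33), while Aqp1 (-1.05) and Rgcc (-0.60) were. Vwf, counted as higher on day 7 at 0.59, was then at 0.40, under 1.5-fold. The median log2 ratio of the members was -0.20, -0.27, -0.34 and 0.15 on the 4 days, beside 0.53, 1.01, 0.82 and 0.35 for all genes.

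Average differences over the sections were tested with edgeR's quasi-likelihood test on the 16 summed libraries, with the section as a block and TMM factors for scale. The 4 mice are of different days, and a large difference in 1 section can give a call that the other days do not share. Of the 10 fast skeletal muscle genes 9 were called higher, but without day 7 only 1 was tested and 0 were called higher. Between quartiles 1 and 4, 6 of the 10 members fell and 0 rose, where 52.6% of 11621 genes were called at an adjusted p under 0.05, 25.0% lower and 27.6% higher. The members' median log2 fold change was -0.72, beside 0.07 over all genes tested. TMM places most genes near 0, and a plain total does not. With total UMIs as the scale the median gene was at 0.71 and the members' median at -0.11, so the members lay below the median gene on both scales while the sign of single members could differ. The ratios per day given above are on the total scale.

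All 4 capillary members fell. Aqp1 fell by 1.18 on the log2 scale (SE 0.29, edgeR adjusted p = 0.00349) and Rgcc by 1.10 (SE 0.30, edgeR adjusted p = 0.00703). Ly6c1 fell by 1.00 (SE 0.20, edgeR adjusted p = 0.000648) and Fabp4 by 0.83 (SE 0.21, edgeR adjusted p = 0.00368). Each of the 4 was lower by CPM in 3 of 4 sections. With only quartiles 1 and 4 in the fit, Aqp1, Ly6c1 and Rgcc were still called and Fabp4 was not. Aqp1 was at -1.40 without the skeletal-marked spots, and still called. Without the section of day 4 Aqp1 was at -0.75 and Rgcc at -0.60, both still called. With total UMIs as the scale Aqp1 was at -0.57 and Ly6c1 at -0.38, both still called, and Rgcc at -0.50 and Fabp4 at -0.22 were not. The receptor Kdr fell by 0.84 (SE 0.19, edgeR adjusted p = 0.00197) and was at -0.22, not called, on the total scale. With TMM factors its log2 ratios on days 1, 4, 7 and 14 were -0.64, -1.15, -1.38 and -0.31, each with a counting interval below 0. Flt1 fell by 0.61 (SE 0.25, edgeR adjusted p = 0.0462), but was lower by CPM in 2 of 4 sections. That call held in 9 of 22 alternatives and was lost without day 4 (-0.38), day 7 (-0.39) or day 14 (-0.71), and its value on the total scale was 0.00.

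The pan-endothelial members and Vwf did not pass the test on this scale. Pecam1 was at 0.24 (SE 0.13, edgeR adjusted p = 0.145) and at 0.87, called higher, on the total scale. Per day with TMM factors its log2 ratio was 0.57 (0.23 to 0.92) on day 1. On days 4, 7 and 14 it was 0.15, 0.03 and 0.18, with counting intervals that reach 0. Cdh5 was at -0.04 (SE 0.17, edgeR adjusted p = 0.852) and turned to 0.60, called higher, on the total scale. Its TMM ratios on days 1, 4, 7 and 14 were 0.45, 0.17, -0.78 and -0.14, with intervals that leave out 0 on days 1 and 7. Tie1 was at -0.55 (SE 0.24, edgeR adjusted p = 0.0647) and Vwf at -0.32 (SE 0.37, edgeR adjusted p = 0.491), and on the total scale they turned to 0.10 and 0.31, neither called. Without day 14 both were called lower, at -0.78 and -0.70, and without day 4 Tie1 was at -0.75, also called. Cdh5 turned to 0.18, not called, without day 7.

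**Figure D3:**
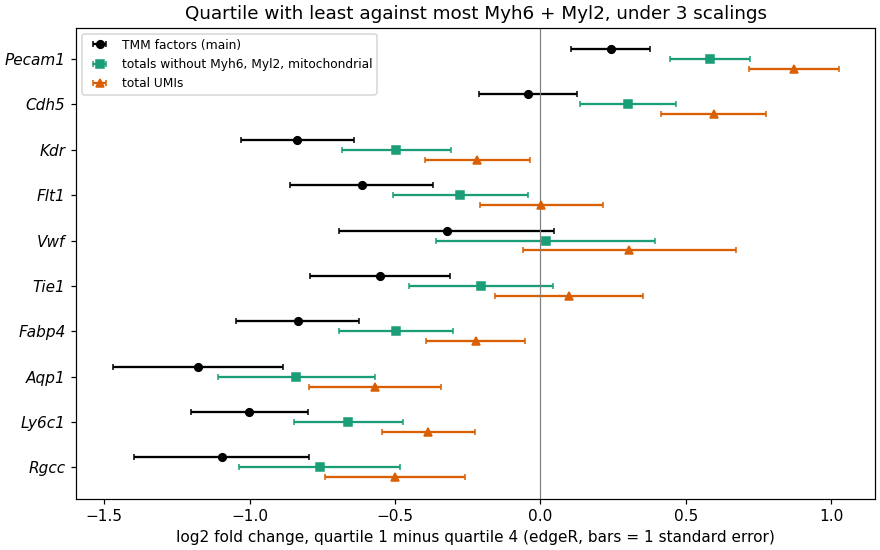
Log2 fold change of quartile 1 minus quartile 4 (horizontal axis) for each of the 10 genes under TMM factors, totals without Myh6, Myl2 and mitochondrial genes, and total UMIs, as fitted by edgeR over 4 sections, with bars of 1 standard error. Aqp1, Ly6c1, Rgcc, Fabp4 and Kdr are below 0 under each scaling and Pecam1 above 0, whereas Cdh5, Vwf, Tie1 and Flt1 cross 0 between scalings.

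Along the ranking the calls lay at the low end. Between quartiles 2 and 4 edgeR called 0 of the 10 members, with 3.42% of genes called (3.08% higher and 0.344% lower), and 0 members were below an unadjusted p of 0.05 and 0 called by DESeq2. Between quartiles 3 and 4 it called 0 members, with 0% of genes called, and 0 members were below an unadjusted p of 0.05 and 0 called by DESeq2. Over all genes the quartile 3 comparison had 169 genes at an unadjusted p under 0.05. In quartile 2 Aqp1 was at -0.56 (SE 0.28, edgeR adjusted p = 0.268), its value lying between those of quartiles 1 and 3. Rgcc was at -0.47 (SE 0.29, edgeR adjusted p = 0.359), also between its values there. Both were lower by CPM in 3 of 4 sections, and the other members lay from -0.21 to 0.19.

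A ratio among the members does not depend on the total. The UMIs of the capillary members (Fabp4, Aqp1, Ly6c1 and Rgcc) were divided by those of the pan-endothelial members (Pecam1, Cdh5 and Tie1). Kdr, Flt1 and Vwf were in neither sum, and no ratio was made with them, though Kdr and Flt1 fell in the test above. The members were chosen with earlier results of these data known, so the ratio is a description and adds no separate support. The log2 ratio in quartile 1 was 2.22, 2.01, 2.16 and 2.79 on days 1, 4, 7 and 14, and in quartile 4 it was 3.17, 3.76, 2.78 and 3.23. The values of the quartiles do not quite separate, since 2.79 of day 14 lies just above 2.78 of day 7, but within each section quartile 1 was lower. The differences were -0.95, -1.75, -0.62 and -0.44, a mean of -0.94 (SD 0.58, n = 4), and an exact sign-flip permutation test over the sections, two-sided, gave p = 0.13, the smallest that 4 sections allow. With Fabp4, the most abundant, left out, the mean was -1.07 (SD 0.83, n = 4), again lower in 4 of 4 sections. The differences were then -1.33, -2.10, -0.64 and -0.20 on days 1, 4, 7 and 14, so that of day 14 was small. No counting interval was made for these differences. Without the skeletal-marked spots the difference of day 7 was -0.76.

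**Figure D4:**
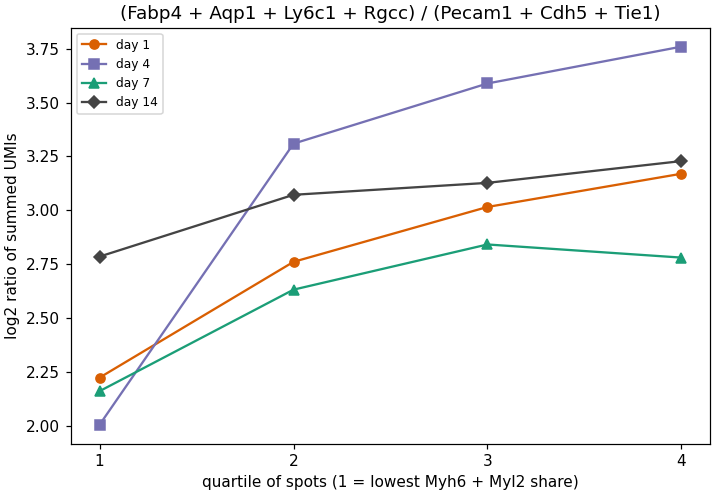
Log2 ratio of the summed UMIs of 4 capillary members over 3 pan-endothelial members (vertical axis, log2 scale, not starting at 0) by quartile of spots (horizontal axis, 1 = lowest share of Myh6 and Myl2), 1 line per day. In each section quartile 1 has the lowest ratio, and day 4 spans the most, from 2.01 to 3.76.

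Other vascular genes were read from lists that share no gene with the 10. Of all 11621 genes tested, 27.6% rose and 25.0% fell between quartiles 4 and 1, and the counts of each list stand beside these shares. Of 13 genes of capillaries and fatty acid handling, 11 fell between quartiles 4 and 1 and 1 rose, with a median log2 fold change of -1.64 by edgeR with TMM and -1.02 with total UMIs. Timp4, an inhibitor of metalloproteinases abundant in heart, fell by 2.81 (SE 0.56, edgeR adjusted p = 0.00103), from 34.4, 69.8, 41.1 and 25.0 CPM in quartile 4 to 2.92, 2.54, 15.0 and 20.2 in quartile 1. Lpl, the lipase that frees fatty acids at the vessel wall, fell by 2.21 (SE 0.38, edgeR adjusted p = 0.000201). Cardiomyocytes make Lpl, Timp4 and the fatty acid transporter Cd36 too, and 8 of 8 cardiomyocyte markers outside the ranking pair fell, so their share in this list was not tested. The exception was Fabp5, a fatty acid binding protein also found in macrophages, which rose by 1.48 (SE 0.37, edgeR adjusted p = 0.00389) and had 202, 887, 355 and 86.4 CPM in quartile 1 against 58.8, 59.0, 90.2 and 73.5. All 8 macrophage markers also rose.

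Of 21 further pan-endothelial genes, 3 rose and 2 fell, where 27.6% of all genes rose and 25.0% fell. Their median of -0.17 by TMM turned to 0.48 with total UMIs, where 15 were called higher and 0 lower. On that scale 6762 of the 11621 genes were called higher and the median gene was at 0.71, above the list's. Without day 14 the number that fell was 5, and without day 4 it was 1. Erg, an ETS factor of endothelial identity, rose by 1.20 (SE 0.26, edgeR adjusted p = 0.00106). Its level was 8.04, 13.4, 24.5 and 7.68 CPM in quartile 1 and 2.75, 2.63, 6.14 and 2.85 in quartile 4. Cd93, a receptor of endothelium and myeloid cells, rose by 1.04 (SE 0.23, edgeR adjusted p = 0.00123). The other gene that rose was Ecscr, which takes part in endothelial migration, and those that fell were Tek, the angiopoietin receptor, and Robo4, which stabilises vessels. These 3 are outside the rule for named genes and were named after their values were seen.

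Of 10 tested genes of angiogenic and tip cells 5 rose and 0 fell, with a median of 0.70 by TMM. Plvap, which forms the diaphragms of fenestrated endothelium, rose by 2.44 (SE 0.31, edgeR adjusted p = 2.74e-05), from 7.57, 4.48, 8.45 and 6.66 CPM in quartile 4 to 32.2, 76.5, 101 and 37.9 in quartile 1, higher in 4 of 4 sections. Unc5b, a netrin receptor of tip cells, rose by 1.68 (SE 0.26, edgeR adjusted p = 0.000107). Of 6 tested venous and adhesion genes 4 rose and 0 fell. Among them Selp, the P-selectin of venules and platelets, rose by 3.38 (SE 0.76, edgeR adjusted p = 0.00156) from 105 UMIs in all, and Vcam1, which binds leukocytes and is not limited to endothelium, rose by 1.35 (SE 0.26, edgeR adjusted p = 0.000477).

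Of 10 tested arterial genes 4 rose and 1 fell, where 27.6% of all genes rose and 25.0% fell. The rises were led by the Notch ligand gene Jag1 at 1.16 (SE 0.19, edgeR adjusted p = 0.000154) and the connexin gene Gja5 at 0.89 (SE 0.36, edgeR adjusted p = 0.0444). The counts of rises and falls were 2 and 0 without day 4 and 2 and 2 without day 7. Of 5 tested endocardial genes 3 rose and 1 fell, but without the section of day 4 the counts were 0 and 0. Of 7 tested lymphatic genes 1 rose and 1 fell. Pdpn, which fibroblasts also express, rose by 3.43 (SE 0.24, edgeR adjusted p = 8.64e-07), and Prox1, the lymphatic master regulator that cardiomyocytes also transcribe, fell by 1.42 (SE 0.27, edgeR adjusted p = 0.000457). Of 11 mural genes 5 rose and 4 fell. Cnn1 and Tagln, genes of the smooth muscle contractile apparatus that myofibroblasts share, rose by 2.36 (SE 0.36, edgeR adjusted p = 8.13e-05) and 2.11 (SE 0.34, edgeR adjusted p = 0.000192). Abcc9, a potassium channel subunit of pericytes and cardiomyocytes, fell by 2.00 (SE 0.29, edgeR adjusted p = 6.48e-05).

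**Figure D5:**
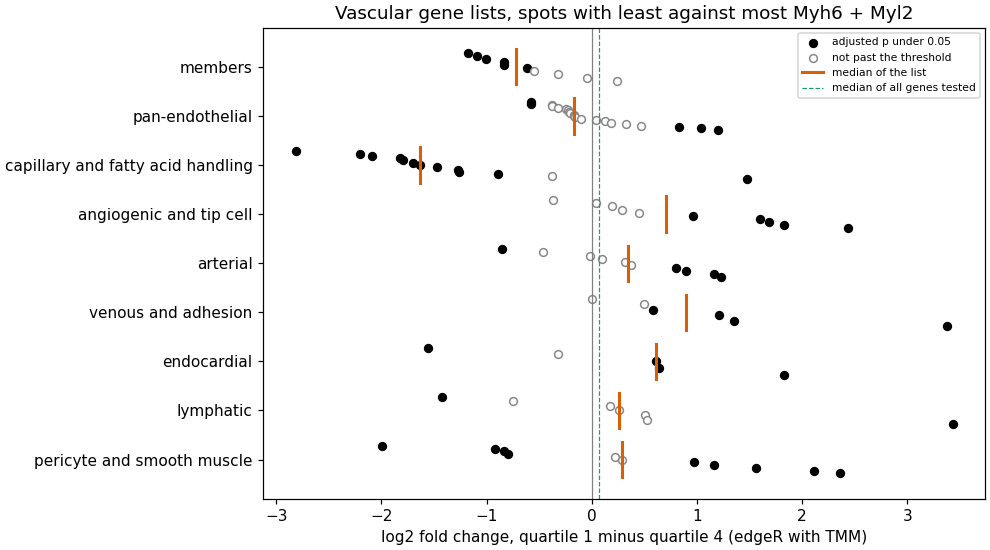
Log2 fold change of quartile 1 minus quartile 4 (horizontal axis, edgeR with TMM) for the 10 members and 8 further vascular lists, 1 point per gene tested, filled at an adjusted p under 0.05, with the median of each list as a bar and that of all genes tested as a dashed line. The capillary and fatty acid list has a median of -1.64 and the angiogenic and venous lists lie above 0, and with total UMIs as the scale the median of the pan-endothelial list turns from -0.17 to 0.48 and that of all genes from 0.07 to 0.71.

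Between days the members were compared in the same quartile, as a description. The Myh6 and Myl2 share of quartile 4 was alike on the 4 days, at 2.56% to 2.82%. That of quartile 1 ran from 0.229% to 1.53%, so there the days compare spots of unlike share. In quartile 4 the number of members at least 1.5-fold above day 1 was 0, 1 and 0 on days 4, 7 and 14, with 8.80%, 13.8% and 7.05% of genes, and the number at least 1.5-fold below was 1, 2 and 4, with 15.5%, 10.6% and 16.1% of genes. Those lower on day 14 were Aqp1, Flt1, Tie1 and Vwf, with log2 ratios of -1.57, -0.89 (-1.26 to -0.52), -0.78 (-1.45 to -0.12) and -0.59 (-1.02 to -0.17). In quartile 1 the number above was 2, 0 and 1, with 35.6%, 35.3% and 15.1% of genes, and the number below was 3, 2 and 3, with 12.4%, 14.9% and 32.6%. Fabp4 had nearly the same level in whole sections on days 4, 7 and 14, at 733, 725 and 731 CPM against 626 on day 1. Ly6c1 had its highest section level on day 4, at 305 CPM against 230, 250 and 180 on days 1, 7 and 14, and Kdr on day 7, at 104 against 55.5, 53.5 and 65.5 on days 1, 4 and 14.

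Day 14 was read again at a fixed limit, because its quartile 1 ran up to spots of 1.94% Myh6 and Myl2. Its 176 spots with under 0.5% Myh6 and Myl2 had a median of 1227.5 UMIs, against 8869 in its 1457 spots over 2%. In the 176 spots Vwf had 78.1 CPM against 14.6 in spots over 2% (log2 2.42, 1.69 to 3.07). Aqp1 had 145 against 52.1 (1.48, 0.97 to 1.94) and Tie1 33.5 against 8.93 (1.91, 0.74 to 2.88), the last from 9 UMIs. Fabp4 went the other way, at 309 against 738 (-1.26, -1.59 to -0.95), and so did Rgcc, at 7.44 against 50.2 (-2.76, -5.80 to -0.90), from 2 UMIs. Vwf had 21 UMIs in the 176 spots and 185 in the 1457 over 2%, Aqp1 39 and 659, and Tie1 9 and 113. Per spot none of Vwf, Aqp1 and Tie1 was therefore higher in the 176 spots, and their higher CPM are shares of a smaller total. On day 4 Aqp1 was lower in the spots under 0.5%, at 42.7 against 137 (-1.68, -2.01 to -1.37). In the 176 spots of day 14 the collagen and fibroblast sum was 46693 CPM against 1143 in spots over 2%, the macrophage sum 3909 against 157, the platelet sum 271 against 29.5 and a sum of 4 mesothelium genes 320 against 6.40. The part of these cells in the levels of Vwf, Aqp1 and Tie1 was not tested.

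Across the 16 libraries the members did not move as a block. The highest Pearson r between members, on log2(CPM + 10), was 0.80 for Pecam1 and Cdh5, and the lowest was -0.73 for Pecam1 and Rgcc. Among 4760 other genes of at least 1000 UMIs, those closest to the mean of the 10 were Mfap1b (r = 0.89), Thbd (0.81), Podxl (0.79), Fbxo40 (0.79), Serinc1 (0.79), Kif1b (0.79), Abra (0.76) and Adgrf5 (0.75). Thbd encodes thrombomodulin, and Thbd, Podxl and Adgrf5 are expressed in endothelium. These values describe 16 libraries that share 4 sections and their depth, and have no test.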

How the data were processed

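Visium libraries of 4 heart sections, 1 per day after MI, were analysed. The deposited values are UMI counts per gene and spot under tissue, not normalized, which the authors made with Space Ranger 1.3.0 on mm10 after aligning the images by hand. Spot positions were not used here. The first section is called day 1, as in its labels.

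The members and gene lists were chosen with earlier results of these data known. Spots above 1% of UMIs in 8 hemoglobin genes were dropped (7503 of 9102 kept). The spots of each section were ranked on their share of Myh6 and Myl2 and cut into quartiles, and UMIs were summed into 16 libraries, since spots are not replicates. edgeR 4.0.16 (glmQLFit, robust) was run on genes of at least 100 UMIs (11621) with TMM factors and the section as block. P-values were adjusted by Benjamini-Hochberg over all genes tested. TMM factors were 1.05 to 1.62 in quartile 1. Each standard error was taken from the fold change and its F statistic. CPM have exact Poisson 95% intervals and ratios exact conditional ones. Both cover counting error only. In a simulation of quartile 1 against quartile 4 over 11621 genes, 132 of 200 genes with a log2 change of 1 were recovered, and 5 of 137 calls were wrong. The simulated libraries shared a common mean profile and a fixed dispersion, without section effects and with as many rises as falls. Its error rate therefore does not cover data in which most genes shift, as here on the total scale.

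Named genes are the members, up to 2 rises and 2 falls per list that were called with the same sign in 4 of 4 sections, and the 8 genes most alike. The endocardial genes Plxnd1 and Nfatc1 meet this rule but are given only in the count of their list, and Adipoq is named outside it. Genes that the rule takes from lists of other tissues and cells are given only as counts or sums, apart from Pf4. Of those lists, red cell genes had 0 rises and 3 falls of 5 tested, mesothelium 3 rises of 4, atrium 3 rises of 3, platelet 2 rises of 2, fast skeletal muscle 9 rises of 10, scar and fibroblast 7 rises of 8, and adipocyte 0 calls among 3 tested. The atrium list includes Nppa, which the authors used to mark the border zone between infarct and remote zones. With Nppa left out, only 1 kept spot, in quartile 1 of day 7, reached 10 UMIs of that list. Over all genes tested 27.6% rose and 25.0% fell. Coordinates are of GENCODE M21 on GRCm38. Alternatives were DESeq2 1.42.0, other scalings, filters, rankings and limits on spots, and each section left out.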

Additional observations from a re-analysis of the deposited data

Results flagged for a closer look

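By CPM, Vwf had opposite directions on the first and last day. Its log2 ratio of quartile 1 to quartile 4 in CPM was -0.85 on day 1 and 0.85 on day 14, each with a counting interval that leaves out 0. With 1 section per day the difference between the days was not tested. The values of days 4 and 7 were 0.39 and 0.59, with intervals that reach 0. On day 14 the spots with under 0.5% Myh6 and Myl2 were at 2.42, but they are part of quartile 1 and add no separate support. Per spot Vwf was not higher in quartile 1 of day 14, with 82 UMIs in 522 spots against 92 in the 521 spots of quartile 4. With TMM factors the values of days 4 and 7 were -0.56 (-0.98 to -0.15) and -0.14 (-0.79 to 0.50).

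The members were also present in the spots left out for their hemoglobin. Summed, they had 995, 1345, 1518 and 1257 CPM in the 261, 347, 336 and 655 spots over the limit on days 1, 4, 7 and 14, against 1298, 1433, 1470 and 1244 in the spots kept. Vwf was higher in the spots left out on day 4 (46.6 against 32.3 CPM), day 7 (45.0 against 23.7) and day 14 (41.8 against 18.0), with counting intervals of the log2 ratio that leave out 0, and on day 1 it was 36.3 against 31.4, with an interval that reaches 0. The spots left out had a median of 2646, 5108.5 and 1164 UMIs on days 4, 7 and 14, against 8799, 5188 and 8310.5 in those kept. On day 4 Vwf had 57 UMIs in 347 spots left out against 464 in 1679 kept, and on day 14 it had 67 in 655 against 283 in 2086. Per spot it was therefore lower in the spots left out on those days, and higher on day 7 (76 in 336 against 220 in 1848). Red blood cells lie in vessel lumens, and no position of the spots left out was used here.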

How the results depend on the processing

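Aqp1 and Ly6c1 kept their direction and call in all 22 alternatives, with log2 values of -1.56 to -0.57 and -1.73 to -0.38. Kdr kept both in 21, Rgcc in 20 and Fabp4 in 19, with no reversal. Flt1 kept its call in 9. Pecam1 was called higher in 3 alternatives and Tie1 lower in 9 of 21. Signs that turned were those of Cdh5 with total UMIs (0.60), totals without Myh6, Myl2 and mitochondrial genes (0.30), genes of at least 1000 UMIs (0.18), leaving out single sections (from -0.24 to 0.18, above 0 without day 7) and with spots of at least 1000 UMIs (0.0071). Vwf turned with total UMIs (0.31), totals without those genes (0.018) and spots ranked on 8 other cardiomyocyte genes (0.029), and Flt1 and Tie1 with total UMIs (0.0033 and 0.10). Genes called higher and lower numbered 3204 and 2903 with TMM, 6762 and 1237 with total UMIs, 5180 and 1823 with totals without those genes, and 1679 and 1548 with genes of at least 1000 UMIs, where fewer genes were tested. Leaving out 1 section gave 2103 to 3036 higher and 1979 to 2778 lower calls, the fewest higher calls without day 4. Members called lower then numbered 5 without day 7, 6 without day 1 or day 4 and 7 without day 14. With totals without those genes, the summed members' log2 ratio of quartile 1 to quartile 4 was -0.16, -0.90, -0.72 and -0.12 on days 1, 4, 7 and 14, and the sign of day 1 turned from 0.04. The ratio of capillary to pan-endothelial members was -1.11 to -0.67 on average with 1 section left out. The fixed limits of 0.5% and 2%, the deciles and the levels per day without skeletal-marked spots were added after seeing the data. Quartiles were compared within sections, with the section as a block. Without the section block 2844 and 2446 genes were called higher and lower, and Rgcc (-0.99) and Flt1 (-0.58) were no longer called. With only quartiles 1 and 4 in the fit, 0 members were called higher and 4 lower, beside 2420 and 1990 of all genes tested. Those 4 were Kdr, Aqp1, Ly6c1 and Rgcc, so Fabp4 and Flt1 were no longer called. No paired analysis was possible between days, because no mouse was measured on more than 1 day.

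Each day is 1 section of 1 mouse, so day and mouse cannot be told apart. The test is of an average over the 4 sections, and a call does not show that all 4 days share the difference. Spots mix cell types. Tie1, and the lowest spots of day 14, rest on few UMIs.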
